A study of Mus musculus with 12 samples.

Results

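The comparison asked what an inhibitor of Jak kinases did to gene expression in mouse macrophages that were exposed to lipopolysaccharide (LPS), the outer-membrane molecule of bacteria that the receptor TLR4 detects. It set wild-type RAW 264.7 cells given LPS and the inhibitor against wild-type cells given LPS alone, in 4 of the 12 RNA sequencing libraries analysed. RAW 264.7 is an established macrophage line of BALB/c origin, bought from a cell repository, and exposures lasted 2 h. Each group had 2 libraries: WT_LPS (wild type, LPS), WT_LPS_JAKi (wild type, LPS plus Jak inhibitor), WT_UT (wild type, untreated), WT_JAKi (wild type, Jak inhibitor alone), and KO_UT and KO_LPS, which were Parp14 -/- cells of the same line, untreated or with LPS. The 4 libraries were chosen by their treatment labels, with the replicate number as a pairing, and no expression value was used to choose them. The sources used here do not give the inhibitor's name or dose, whether it preceded LPS, or how many knockout clones there were.

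Jak kinases sit on the inner side of cytokine receptors and, when a ligand binds, phosphorylate Stat transcription factors. Macrophages that sense LPS make interferon beta, which leaves the cell and acts back on the interferon receptor Ifnar1-Ifnar2. The kinases Jak1 and Tyk2 on that receptor activate Stat factors, among them Stat2, which acts with Irf9 at interferon-stimulated response elements (ISRE), while Stat dimers bind gamma-activated sites (GAS). Cytokines induced directly by TLR4 through NF-kB, such as Tnf, do not need this relay.

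The 4 libraries held 36.6 to 45.7 M gene reads. Levels are given as CPM, read counts scaled to the gene reads of a library. A change is a difference of log2(CPM + 1), given with its standard error (SE), and a gene was called at a Benjamini-Hochberg adjusted p under 0.05 in limma over 10899 tested genes. Summed macrophage markers stood between 18152 and 19227 CPM in the 4 libraries, and 0 of 24 tested members were called. In each of these libraries 8 of 12 lymphocyte markers had 0 reads, and the list summed to at most 1.01 CPM. Dendritic cell markers summed to 72.0 and 54.7 CPM in untreated wild-type cells. They summed to 1055 and 868 CPM with LPS and 1097 and 903 CPM with LPS and the inhibitor. Since the labels do not say that replicates were separate cultures, the p-values reflect only the spread among the 12 libraries of the fit. That spread may be technical.

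With LPS present, the inhibitor lowered 263 genes (2.41% of those tested) and raised 183 (1.68%). Fewer transcribing cells and less RNA per cell cannot be told apart in such bulk libraries. The falls were the larger changes. At least 2-fold lower were 60 genes (0.551%), against 0 genes at least 2-fold higher (0%), and called changes ran from -3.40 to 0.65 around a median of 0.019 over all tested genes. Of the 60 genes, 51 belonged to 4 of the lists described below: interferon-stimulated effectors, interferon-inducible GTPases, Jak-Stat-Irf factors and MHC class I presentation. These lists held 92, 8, 19 and 22 of the 10899 tested genes. They were fixed with earlier results of these data known. Lists share members, so their counts overlap: Stat2, Usp18, Ddx58 and Cxcl10, for example, are each in the effector list and in another. Without the replicate block 113 genes were lower and 8 higher, and 57 of the 60 remained lower. Leaving out 1 library gave 162 (without WT_LPS_JAKi replicate 1) to 409 lower genes (without WT_LPS_JAKi replicate 2), and 31 (without WT_LPS_JAKi replicate 1) to 238 higher ones (without WT_LPS_JAKi replicate 2), with 33 higher without WT_LPS replicate 1; at least 59 of the 60 were called lower each time.

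**Figure D1:**
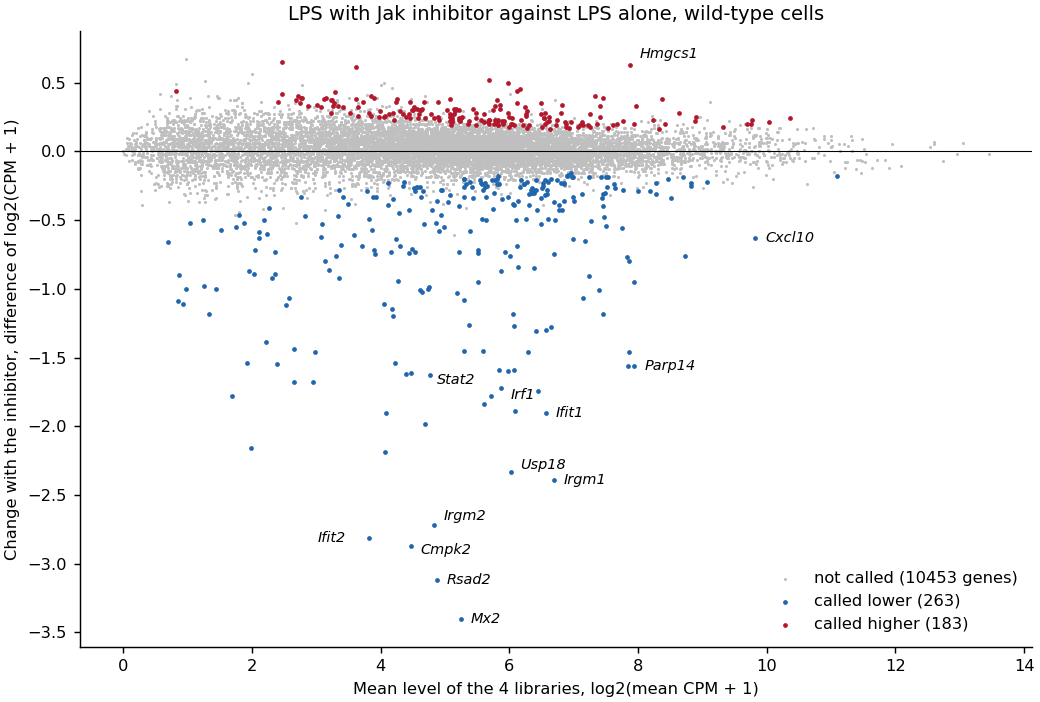
Change with the inhibitor under LPS (difference of log2(CPM + 1)) against the mean level of the 4 libraries (log2(mean CPM + 1)) for 10899 genes; blue genes were called lower (263), red genes called higher (183) and grey genes were not called. The lower genes reach -3.40 at Mx2, whereas the higher genes end at 0.65.

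The promoters of several genes discussed here are printed because Stat-binding motifs can be read in them. Windows are from RefSeq on build GRCm38.p6, 250 bases before to 50 after the annotated start, 5′ to 3′ in the direction of the gene, and capitals mark letters that match ISRE (GAAA, any 2 bases, GAAA) or GAS (TTCNNNGAA) on either strand. The windows are those of Rsad2 (chr12:26456403-26456702, minus strand), Ifit1 (chr19:34640639-34640938, plus strand), Irgm1 (chr11:48871371-48871670, minus strand), Irgm2 (chr11:58214727-58215026, plus strand), Stat2 (chr10:128270248-128270547, plus strand) and Irf1 (chr11:53769764-53770063, plus strand).
Rsad2: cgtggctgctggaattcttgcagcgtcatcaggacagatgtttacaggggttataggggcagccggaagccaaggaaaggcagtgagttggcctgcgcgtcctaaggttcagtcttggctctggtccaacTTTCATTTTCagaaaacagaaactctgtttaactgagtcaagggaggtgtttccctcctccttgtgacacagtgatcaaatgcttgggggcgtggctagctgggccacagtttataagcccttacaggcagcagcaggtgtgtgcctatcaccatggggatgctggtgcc
Ifit1: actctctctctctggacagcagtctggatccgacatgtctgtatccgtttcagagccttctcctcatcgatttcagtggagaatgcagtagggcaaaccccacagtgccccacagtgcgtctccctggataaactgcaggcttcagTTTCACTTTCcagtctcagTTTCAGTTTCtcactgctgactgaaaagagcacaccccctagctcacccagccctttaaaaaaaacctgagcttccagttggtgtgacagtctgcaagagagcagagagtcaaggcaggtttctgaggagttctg
Irgm1: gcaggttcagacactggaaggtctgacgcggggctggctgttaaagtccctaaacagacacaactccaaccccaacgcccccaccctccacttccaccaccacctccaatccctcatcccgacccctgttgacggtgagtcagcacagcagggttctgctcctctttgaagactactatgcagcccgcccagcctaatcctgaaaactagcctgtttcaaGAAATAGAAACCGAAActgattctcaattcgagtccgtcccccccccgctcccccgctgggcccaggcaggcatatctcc
Irgm2: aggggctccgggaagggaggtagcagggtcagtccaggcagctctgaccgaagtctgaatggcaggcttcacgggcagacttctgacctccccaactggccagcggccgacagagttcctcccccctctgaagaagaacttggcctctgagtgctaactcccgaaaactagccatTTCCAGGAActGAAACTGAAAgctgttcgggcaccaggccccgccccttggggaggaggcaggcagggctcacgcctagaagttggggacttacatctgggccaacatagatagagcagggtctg
Stat2: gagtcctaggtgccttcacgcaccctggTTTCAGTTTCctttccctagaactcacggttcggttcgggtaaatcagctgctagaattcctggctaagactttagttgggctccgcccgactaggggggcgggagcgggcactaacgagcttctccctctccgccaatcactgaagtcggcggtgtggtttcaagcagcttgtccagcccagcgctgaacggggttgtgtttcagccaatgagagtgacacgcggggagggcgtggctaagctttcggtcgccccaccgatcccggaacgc
Irf1: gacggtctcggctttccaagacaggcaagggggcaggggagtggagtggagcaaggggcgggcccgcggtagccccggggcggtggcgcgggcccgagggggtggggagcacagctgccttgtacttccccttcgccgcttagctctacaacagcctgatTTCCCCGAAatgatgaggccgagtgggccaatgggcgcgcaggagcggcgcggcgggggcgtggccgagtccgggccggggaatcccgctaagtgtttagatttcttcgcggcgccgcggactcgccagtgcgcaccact

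Among these windows, that of Rsad2 had 1 ISRE beginning 120 bases before the start, and that of Ifit1 had 2, beginning 104 and 85 bases before it. The Irgm1 window had 2 overlapping ISRE matches, at 30 and 24 bases before the start. Irgm2 had an ISRE at 64 and a GAS at 75 bases before the start, Stat2 an ISRE at 222, and Irf1 a GAS at 90. Over all genes, 45 of the 60 that were at least 2-fold lower had a RefSeq window, and 21 of the 45 (46.7%) held an ISRE in any of their windows. The same match was in 31 of 156 (19.9%) genes lower by less, in 1 of 142 (0.704%) higher genes and in 328 of 8401 (3.90%) tested genes with a window, and in 3.44% of all 32851 windows. GAS was in 9 of the 45 (20%), against 8.37% of tested genes and 8.30% of all windows, and the NF-kB motif in 6 (13.3%), against 12.1% and 8.46%. The Cmpk2, Xaf1 and Irf7 windows held neither ISRE nor GAS, which says only that these letters are not in those windows. These shares are descriptions, and a match is not a measured binding site.

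The ligand and the receptor of the relay were not called. Ifnb1 (interferon beta) stood at 31.7 and 27.7 CPM with LPS and at 24.2 and 28.4 CPM with LPS and the inhibitor, against 0.0507 and 0 CPM untreated. The groups with LPS overlapped, and the change was -0.17 (SE 0.121, adjusted p = 0.462). Ifnar1 changed by 0.02 (SE 0.0442) and Ifnar2 by 0.05 (SE 0.0486), and 0 of 6 tested interferon ligands and receptors were called in this limma fit. The kinase genes did not pass the test either: Jak1 changed by -0.06 (SE 0.0401), Jak2 by -0.00 (SE 0.0502) and Tyk2 by 0.01 (SE 0.0494).

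Part of the transcription factors below the receptor fell. Of 19 tested Jak, Stat and Irf genes 7 were lower, beside 2.41% of all tested genes, 0 were higher and 12 were not called, with a list median of -0.11. Irf7, which amplifies interferon production, was at 72.0 and 87.5 CPM with LPS and at 18.0 and 27.8 CPM with the inhibitor added, a change of -1.78 (SE 0.0685, adjusted p = 2e-10). Irf1, an interferon-induced factor, went from 95.4 and 82.9 CPM to 29.9 and 23 CPM (-1.72, SE 0.0852, adjusted p = 3.2e-09). The latter values overlapped those of untreated cells, at 28.4 and 24.4 CPM. Stat2 was at 36.2 and 44.1 CPM with LPS and 10.6 and 14.2 CPM with both agents (-1.63, SE 0.0668), below the 29.3 and 34.0 CPM of untreated cells.

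Irf9, the partner of Stat2 in binding ISRE, fell as well. It went from 90.4 and 91.5 CPM to 35.4 and 44.0 CPM (-1.18, SE 0.0663). For Irf7, Irf1, Stat2 and Irf9 both libraries with LPS and the inhibitor lay below both with LPS alone, as they did for 11.9% of tested genes. Stat3 did not pass the test, at 63.5 and 74.6 CPM with LPS and 58.8 and 68.9 CPM with both agents (-0.11, adjusted p = 0.264).

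**Figure D2:**
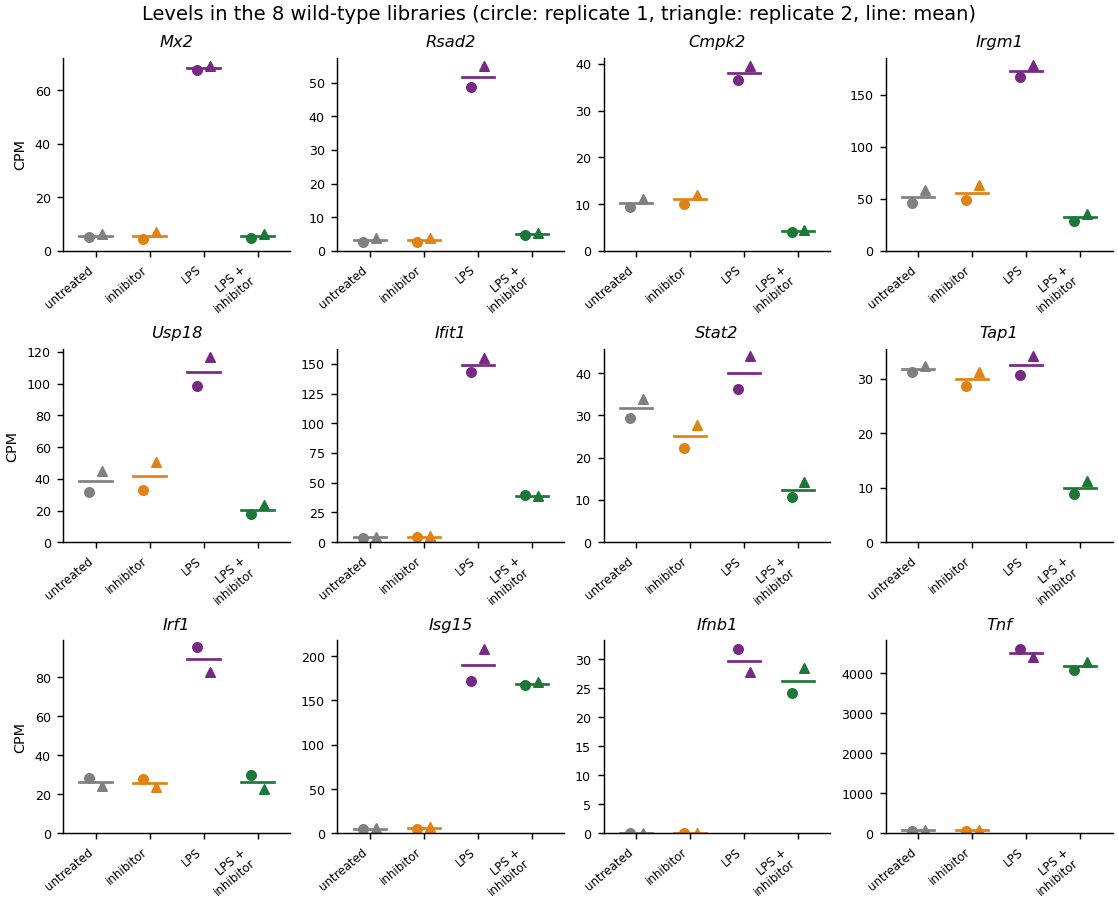
Level in CPM (linear axes from 0) of 12 genes in the 8 wild-type libraries, by treatment; circles are replicate 1, triangles replicate 2 and lines the mean of 2. Mx2 drops from 67.6 and 69.0 CPM with LPS to 4.81 and 6.41 CPM with LPS and the inhibitor, whereas Ifnb1, Isg15 and Tnf stay within or near the range of LPS alone.

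Interferon-stimulated effectors carried the largest changes. Of 102 listed symbols 92 were tested. Of these 71 were lower, beside 2.41% of all tested genes, and 0 higher. The median was -0.91, beside 0.019 for all genes, and 40 of the 71 fell at least 2-fold. Mx2, a gene of the antiviral Mx family, was at 67.6 and 69.0 CPM with LPS and 4.81 and 6.41 CPM with both agents (-3.40, SE 0.1, adjusted p = 1.64e-11), or 8.22% of the LPS level. Its untreated libraries were at 5.10 and 6.30 CPM, so the level with both agents overlapped the untreated one. GENCODE M21 lists Mx2 as a polymorphic pseudogene.

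Rsad2, the antiviral enzyme viperin, went from 48.6 and 54.8 CPM to 4.81 and 5.27 CPM (-3.12, SE 0.103, adjusted p = 4.78e-11). Cmpk2, a mitochondrial nucleotide kinase encoded beside Rsad2, went from 36.5 and 39.6 CPM to 4.16 and 4.55 CPM (-2.87, SE 0.0723, adjusted p = 5.63e-12). The 2 neighbours differed in how they stood against untreated cells. Rsad2 stayed just above its untreated 2.71 and 3.90 CPM, while Cmpk2 lay below its untreated 9.48 and 11.1 CPM.

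The Ifit genes, whose proteins bind viral RNA, also fell. Ifit2 was at 21.6 and 25.7 CPM with LPS and at 2.08 and 3.0 CPM with both agents (-2.81, SE 0.135), below the 10.4 and 10.4 CPM of untreated cells. Ifit1 had the opposite order: it went from 143 and 155 CPM to 39.5 and 39.0 CPM (-1.90, SE 0.0796), still far above 3.42 and 4.52 CPM untreated. Of its rise with LPS 24.3% was left with the inhibitor. Ifit3 changed by -2.16 (SE 0.111), with the reservation that reads shared with its near-identical copy Ifit3b may have been dropped or split by the counting.

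Further effectors fell as well. Slfn5 changed by -1.74, Ifi44 by -1.30 and the double-stranded RNA sensor gene Oas3 by -1.31. Xaf1, a pro-apoptotic gene, was at 21.8 and 29.8 CPM with LPS and 5.77 and 6.41 CPM with both agents (-1.90, SE 0.0868). Parp14, the ADP-ribosyltransferase gene that is disrupted in the knockout cells, was at 315 and 419 CPM with LPS and 109.8 and 138 CPM with both agents (-1.56, SE 0.0583), and its neighbour Dtx3l changed by -1.59. Ifi202b, of the DNA-binding p200 family and not in the effector list, changed by -1.98 (SE 0.0814).

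A minority of the effector list did not pass the test. These were 21 genes. LPS had raised 13 of the 21 in wild-type cells, beside 63 of the 71 lower effectors and 18.0% of all tested genes. Isg15, a ubiquitin-like modifier and textbook interferon target, was at 172 and 208 CPM with LPS and 167 and 171 CPM with both agents (-0.16, SE 0.12, adjusted p = 0.488), from 4.69 and 6.32 CPM untreated. The chemokine gene Ccl5 was at 216 and 260.4 CPM with LPS and 218 and 239.9 CPM with both, and Slfn2 changed by -0.09 (SE 0.0805). In between stood Oasl1, which fell from 491 and 571 CPM to 299 and 325 CPM (-0.76, SE 0.081) and remained far above the untreated 22.9 and 29.0 CPM. Ifih1, the RNA sensor MDA5, was likewise called with a small fall (-0.34, SE 0.0455). Members of the list ranged from -3.40 to 0.15.

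All 8 tested interferon-inducible GTPases were lower, beside 2.41% of all tested genes, with a median of -1.45. Irgm1, a GTPase of cell-autonomous defence, was at 167 and 178 CPM with LPS and 29.1 and 35.6 CPM with both agents (-2.39, SE 0.0599, adjusted p = 5.63e-12), below its untreated 46.2 and 58.2 CPM. Irgm2 changed by -2.72 (SE 0.078) and Igtp by -2.19 (SE 0.0755), and reads may be shared between these related genes. The guanylate-binding protein genes fell less: Gbp5 went from 9.59 and 11.6 CPM to 3.45 and 2.97 CPM (-1.46, SE 0.115), and Gbp3 and Gbp2 changed by -0.86 and -0.89. Gbp5 stayed above its untreated 0.330 and 0.475 CPM, unlike Irgm1.

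Feedback inhibitors split. Usp18, which removes Isg15 from proteins and shuts off the interferon receptor, was at 98.2 and 117 CPM with LPS and 18.0 and 23.2 CPM with both agents (-2.33, SE 0.072, adjusted p = 2.61e-11). Socs1, an inhibitor of Jak kinases, went from 2.74 and 2.54 CPM to 0.985 and 0.672 CPM (-1.0, SE 0.12, adjusted p = 9.37e-05). The other classical feedback genes were not called. Cish was at 18.7 and 21.1 CPM with LPS and 23.1 and 17.9 CPM with both, Socs3 changed by 0.13 (SE 0.0825) and the kinase gene Pim1 by 0.07 (SE 0.0601). Over the list of Jak-Stat feedback genes and targets of Stat3 or Stat5, 4 of 32 tested members were lower and 1 was higher. Of all tested genes 2.41% were lower and 1.68% higher, and the list median was 0.00. The higher one was Pim3, at 45.2 and 49.1 CPM with LPS and 58.3 and 58.4 CPM with both (0.30, SE 0.0544), a call lost without the replicate block (adjusted p = 0.237), which left 2 lower and 0 higher, as did leaving out WT_LPS replicate 1 or WT_LPS_JAKi replicate 1. Of 19 cytokine receptors that signal through Jak kinases 0 were called.

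The list of other Toll-like receptors and nucleic acid sensors, which also holds Nod and inflammasome genes, fell in part. Of 21 tested members 8 were lower, beside 2.41% of all tested genes, 0 were higher and the median was -0.17. Ddx58, the RNA sensor RIG-I, went from 94.2 and 117 CPM to 24.5 and 31.2 CPM (-1.89, SE 0.0508, adjusted p = 7.29e-12), below its untreated 46.1 and 56.6 CPM. Zbp1, a sensor of Z-form nucleic acid, changed by -1.55 (SE 0.1) and Dhx58 by -1.08 (SE 0.0686). Tlr3, the endosomal receptor for double-stranded RNA, was at 9.31 and 10.6 CPM untreated, 6.39 and 7.65 CPM with LPS and 2.22 and 3.51 CPM with both agents (-1.07, SE 0.136). Its untreated and LPS libraries did not overlap on this scale, but did after rescaling by the median of ratios, at 8.37 and 9.70 against 7.04 and 8.5 rescaled CPM. Antigen presentation by MHC class I had 5 of 22 members lower, beside the same 2.41%, and a median of -0.11. Tap1, the peptide transporter, was at 30.7 and 34.2 CPM with LPS, at 31.2 and 32.4 CPM untreated and at 8.78 and 11.2 CPM with LPS and the inhibitor (-1.61, SE 0.0673). H2-T24 was also called at least 2-fold lower, at 46.9 and 58.8 rescaled CPM with LPS and 21.2 and 29.1 rescaled CPM with both agents. Tapbp, which loads peptides, changed by -0.29 (SE 0.047), and Cd274, the checkpoint ligand PD-L1, by -0.57 (SE 0.0945). Without the replicate block 5 genes of the Toll-like receptor and sensor list and 2 MHC class I genes were lower, Tap1 and Ddx58 among them.

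**Figure D3:**
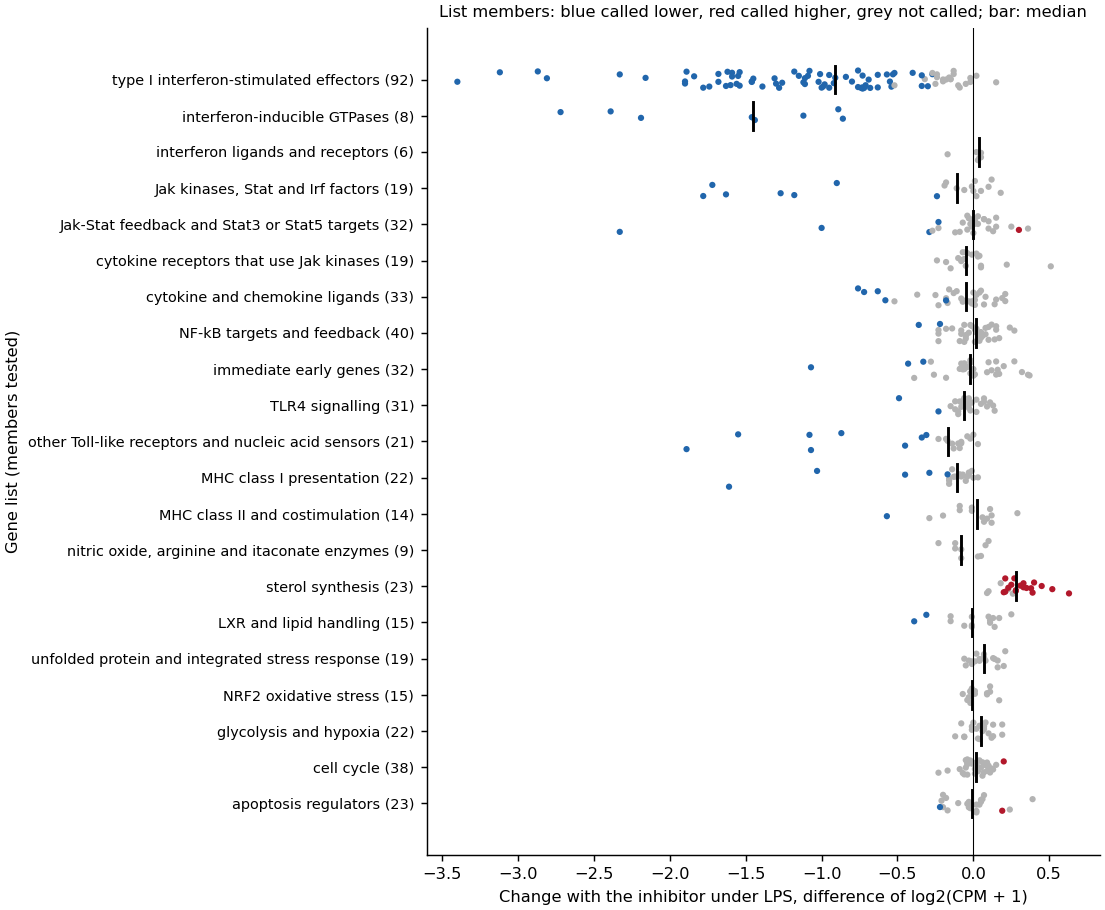
Change with the inhibitor under LPS (difference of log2(CPM + 1)) for the tested members of 21 gene lists; each point is a gene (blue called lower, red called higher, grey not called) and the black bar is the list median. The effector (-0.91) and GTPase (-1.45) medians lie to the left of 0 and the sterol synthesis median (0.28) to the right, with the other medians between -0.17 and 0.07.

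Most cytokine and inflammatory genes did not pass the test. Of 33 tested cytokine and chemokine ligands 5 were lower, beside 2.41% of all tested genes, and 0 higher, with a median of -0.05, while 0 were called without the replicate block. Leaving out WT_LPS_JAKi replicate 2 gave 3 lower and 1 higher, and leaving out any other of the 4 libraries gave 2 lower. Cxcl10, a chemokine for T cells, was at 1036 and 1162 CPM with LPS and 666 and 759 CPM with both agents (-0.63, SE 0.115, adjusted p = 0.00498), from 10.6 and 17.1 CPM untreated. Its call was lost without the replicate block (adjusted p = 0.651), without WT_LPS replicate 1 (adjusted p = 0.12) and without WT_LPS_JAKi replicate 2 (adjusted p = 0.0605). Cxcl11, which shares the receptor of Cxcl10, changed by -0.76, Tnfsf15 by -0.72 and the growth factor Csf1 by -0.58. Tnf was at 4609 and 4424 CPM with LPS and 4077 and 4285 CPM with both agents (-0.11, SE 0.072, adjusted p = 0.414). Il1b (-0.08, SE 0.134) also missed the threshold, as did Il6 (-0.37, SE 0.157, adjusted p = 0.202), which edgeR (adjusted p = 0.0185) and DESeq2 (adjusted p = 0.0486) called lower.

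The NF-kB list had 2 of 40 members lower and 0 higher (median 0.01), and TLR4 signalling 2 of 31 lower and 0 higher (median -0.06), beside 2.41% of all tested genes lower. Called in these lists were Ccrl2 (-0.36), Cflar (-0.22), the kinase gene Map3k8 (-0.49) and Tlr4 itself, at 20.9 and 14.7 CPM with LPS and 16.8 and 13 CPM with both agents (-0.23, SE 0.0568, adjusted p = 0.0335). All 4 calls were lost without the replicate block (Tlr4 adjusted p = 0.966, Ccrl2 0.42, Cflar 0.19, Map3k8 0.105); 0 NF-kB genes were called without WT_LPS_JAKi replicate 1, and 0 TLR4 genes without either WT_LPS library. Among 32 immediate early genes 3 were lower, or 0 without the replicate block and 1 without WT_LPS_JAKi replicate 1 or WT_LPS replicate 2. Atf3, a stress-induced repressor, was the largest, at 183 and 198 CPM with LPS and 78.6 and 103 CPM with both agents (-1.07, SE 0.192, adjusted p = 0.00408), a call lost without the replicate block (adjusted p = 0.0827), without WT_LPS_JAKi replicate 1 (adjusted p = 0.151) and without WT_LPS replicate 2 (adjusted p = 0.0611). Genes for nitric oxide, arginine and itaconate enzymes had 0 of 9 called, with Nos2 at -0.23 (SE 0.146).

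Sterol synthesis was the list that rose. Of 23 tested members 18 were higher and 0 lower, beside 1.68% of all genes, and the median was 0.28. Hmgcs1, which makes HMG-CoA, was at 191 and 175 CPM with LPS and 298 and 268 CPM with both agents (0.63, SE 0.0415, adjusted p = 1.07e-07), from 142 and 135 CPM untreated. Mvd, a decarboxylase of the mevalonate pathway, went from 39.6 and 42.9 CPM to 59.8 and 58.9 CPM (0.52, SE 0.0581). For both genes the groups did not overlap, as for 17.9% of tested genes in this direction. Fdft1, the squalene synthase, changed by 0.45 and Insig1, which restrains sterol synthesis, by 0.40. The differences of the 23 members within a replicate number ran from 0.01 to 0.64. The share of all tested genes above 0 in both replicates was not counted. The number called was 4 without the replicate block, 10 without WT_LPS_JAKi replicate 1, 11 without WT_LPS replicate 2, 13 without WT_LPS replicate 1 and 14 without WT_LPS_JAKi replicate 2.

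**Figure D4:**
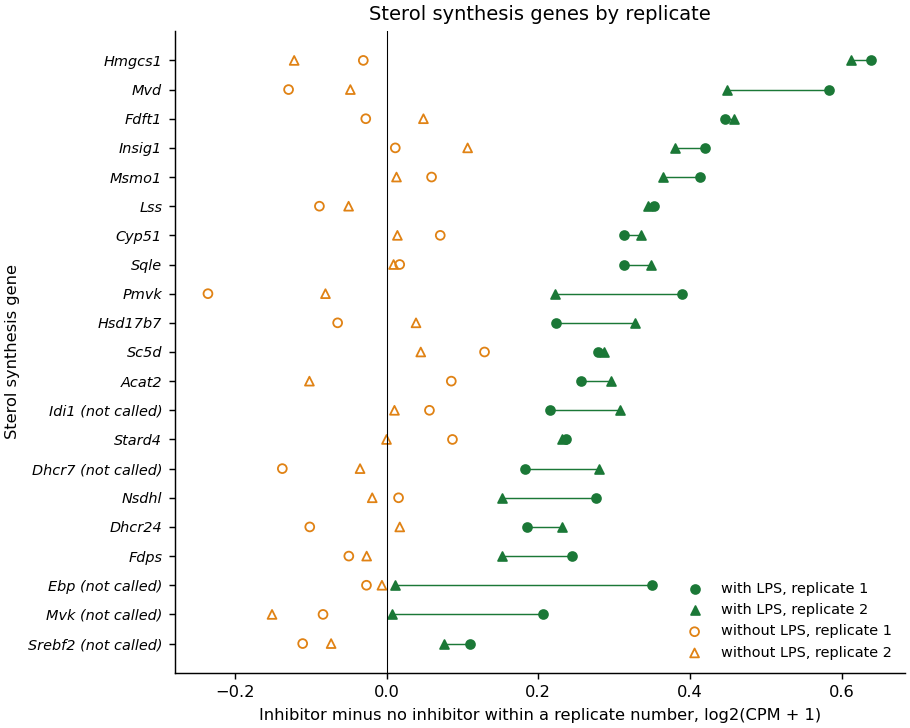
Difference of log2(CPM + 1) between cells with and without the inhibitor within each replicate number, for 21 of the 23 sterol synthesis genes; filled green symbols are with LPS, open orange symbols without LPS, circles replicate 1 and triangles replicate 2. The 21 green pairs lie between 0.01 and 0.64.

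Outside the sterol list, the largest called rise was that of Tpgs1 (0.65, SE 0.156, adjusted p = 0.0323), whose groups overlapped at 3.68 and 2.54 CPM with LPS and 8.94 and 3.07 CPM with both agents. Tpgs1 was named after its values were seen, and its call was lost without the replicate block (adjusted p = 0.939), without WT_LPS replicate 1 (0.318) and without WT_LPS_JAKi replicate 1 (0.393). A Rik clone followed (0.61). Among annotated genes with at least 5 CPM and no overlap, the largest rises outside the list were 0.40 to 0.50. They were those of Aacs, which supplies acetoacetyl-CoA for lipid synthesis, at 50.7 and 51.6 CPM with LPS and 71.6 and 73.7 CPM with both agents (0.50, SE 0.0615), the small GTPase gene Rhob (0.44), Tbcc (0.43), Adat3 (0.42), Macrod1 (0.40) and Pgp (0.40). Without the replicate block the calls of the last 5 were lost (adjusted p = 0.237 for Adat3 to 0.895 for Rhob), as they were without WT_LPS replicate 1 or WT_LPS_JAKi replicate 1. That of Adat3 was also lost without WT_LPS replicate 2 (change 0.46) or WT_LPS_JAKi replicate 2 (change 0.42). It was lost as well in limma with no filter (adjusted p = 0.129) and by DESeq2 (adjusted p = 0.13). Of the genes raised, 21 of 183 were in any of the lists, beside 522 of 10899 tested genes. Of the 21, 18 were sterol genes, and the other 3 were Pim3, Cdc20 and Bax. Abcg1 and Abca1, cholesterol exporters of the LXR list, changed by -0.39 and -0.31, calls that were lost without the replicate block (adjusted p = 0.153 and 0.237), and 0 of 15 members of that list were higher. Unfolded protein response, NRF2 and glycolysis lists had 0 of 19, 0 of 15 and 0 of 22 called by limma.

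Without LPS few genes passed the test. Of 10899 genes 3 were higher (0.0275%) and 1 was lower (0.00918%), and 763 had an unadjusted p under 0.05; DESeq2 called 5 higher and 1 lower. The 4 genes were Socs3 (0.61, SE 0.0825, adjusted p = 0.00956), Fos (0.48, SE 0.0628), Cxcl2 (0.46, SE 0.045, adjusted p = 0.000865) and the long noncoding RNA Neat1 (-0.83, SE 0.11, adjusted p = 0.00956). Socs3 was at 29.0 and 18.1 CPM untreated and 42.1 and 29.9 CPM with the inhibitor, and Fos at 90.7 and 89.7 CPM and 117 and 135 CPM. Without the replicate block 0 genes were called; leaving out WT_JAKi replicate 2 left 1 higher and 0 lower, and leaving out either WT_UT library left 0 lower. Over the 60 genes that were at least 2-fold lower with LPS, the median change without LPS was 0.029, beside -0.009 for all genes. Of the 60, 25 were below and 35 above 0, beside 5894 of 10899 tested genes below 0. The comparisons with and without LPS share no library. Stat2 had the lowest value of the named interferon factors without LPS (-0.33, SE 0.0668, adjusted p = 0.264).

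**Figure D5:**
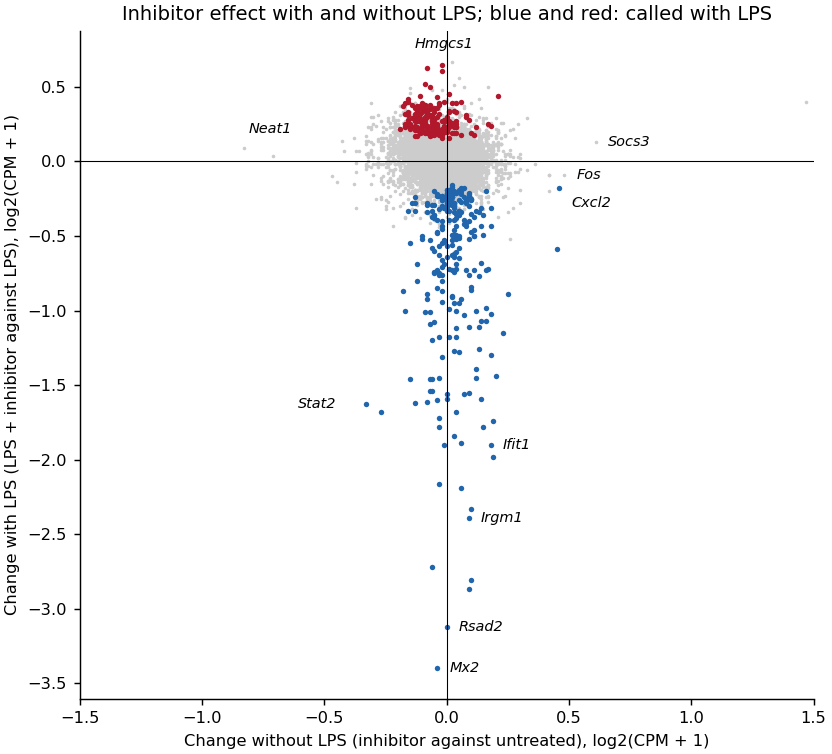
Change with LPS (LPS plus inhibitor against LPS, vertical) against change without LPS (inhibitor against untreated, horizontal), both as differences of log2(CPM + 1), for 10899 genes; blue and red genes were called lower and higher with LPS. Rsad2 stands at -3.12 with LPS and 0.00 without it.

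The difference between both effects was tested as an interaction, which called 185 genes lower with LPS than without it (1.70%) and 133 higher (1.22%), or 62 and 2 without the replicate block. Leaving out 1 library moved the higher count to between 26 (without WT_LPS_JAKi replicate 1) and 242 (without WT_LPS_JAKi replicate 2), with 31 without WT_UT replicate 1, 32 without WT_LPS replicate 1, 41 without WT_JAKi replicate 1, 68 without WT_JAKi replicate 2 and 80 without WT_UT replicate 2; the lower count was 306 without WT_LPS_JAKi replicate 2. Of 92 effectors 71 were lower and 0 higher in this test, and of 8 GTPases all 8. Rsad2 had a difference of -3.13 (SE 0.145), Irgm1 of -2.48 (SE 0.0847) and Hmgcs1 of 0.70 (SE 0.0588, adjusted p = 2.72e-06). Cxcl2, raised by the inhibitor alone, was slightly lower with LPS (-0.18, SE 0.045, adjusted p = 0.0349), a difference of -0.64 (SE 0.0637).

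The genes lowered by the inhibitor were set against the LPS response of Parp14 -/- cells, which shares no library with the comparison. Parp14 itself was at 10 and 12 CPM in untreated and 34.9 and 40.5 CPM in LPS-treated knockout cells, below every wild-type library. Of 524 genes that LPS raised at least 2-fold in those cells (4.81% of tested genes), 47 (8.97%) were lower with the inhibitor in wild-type cells, beside 2.41% of all genes, and 4 (0.763%) were higher. Of 1472 genes raised by less, 74 (5.03%) were lower. In the other classes the share was 1.79% (not called), 1.44% (lowered by under 2-fold) and 1.94% (lowered at least 2-fold). The 4 higher ones were Pim3, Rhob, Ddx28 and Id3, the last 2 named after their values were seen. With LPS the listed interferon-stimulated effectors summed to 7223 and 7868 CPM in knockout cells, against 10097 and 11118 CPM in wild-type cells. The shares are therefore those of classes of the knockout response, not of genes that LPS raised in wild-type cells.

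Against untreated cells, 50 of the 60 genes had both WT_LPS libraries above both WT_UT libraries (83.3%, beside 19.0% of tested genes). With the inhibitor added, 39 of the 60 (65.0%) lay below both untreated libraries, which is close to the 62.6% of all tested genes; the median gene fell by 0.302 on the log2 scale with LPS. After rescaling by the median of ratios, a choice made after the data were seen, these counts were 55 and 35, beside 37.4% and 43.5% of tested genes. Of the 60, the genes that stayed above both untreated libraries numbered 6, or 10 after rescaling, beside 19.4% and 36.8% of tested genes. The 6 were Rsad2, Parp14, Gbp5, Ifit1, Atf3 and Slfn8. A further 4 had both libraries with LPS alone below both untreated ones, or 3 after rescaling, which dropped Tlr3. The same order held for 64.5% of tested genes, or 43.2% after rescaling. The 4 were Tlr3, 2 predicted genes and Pml, a nuclear body component. Pml was at 41.2 and 42.0 CPM untreated, 22.6 and 31.3 CPM with LPS and 7.58 and 9.56 CPM with both agents.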

How the data were processed

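Per the labels' protocols, TruSeq RNA libraries were made from total RNA of RAW 264.7 cells. The authors deposited CPM for each symbol in each library; the submitters' processing notes name TopHat2 2.1.0, HTSeq, edgeR and the builds mm10 and GRCm38. The sources used here do not give the HTSeq and edgeR versions, the annotation or the strand setting. The table held 24421 symbols, 12 columns assigned to samples and 4 per-sample columns that no label fits, left unused. The CPM were scaled over all counted alignments, including 5 summary lines that are not genes; 58.95 to 64.06% fell in genes and 28.59 to 34.92% had no unique position, so genes with near-identical copies lose reads. Whole reads were recovered for 100% of values, within 0.02 reads.

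Summary lines were dropped and each column rescaled to its gene reads (35.9 to 45.7 M). Tested were genes reaching 1 CPM in 2 or more libraries, with limma 3.58.1 (trend, R 4.3.3) on log2(CPM + 1), a scale that understates the change of genes near 1 CPM, in a fit of 6 group means and the replicate number over 12 libraries (residual degrees of freedom 5), with Benjamini-Hochberg adjustment. Same-numbered libraries deviated together in all 15 pairs of groups (r 0.468 to 0.737 of the replicate difference across genes, which are not independent replicates), though the labels name no shared day. The fit was tested on simulated data.

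Members, lists and tests were chosen with earlier results of these data known. Named were the 10 largest called changes each way per comparison whose higher group averaged 5 CPM or more and whose groups did not overlap (for the interaction, the same sign in both replicates), up to 4 members of each list, and 25 followed genes; not all are printed. Slfn5, Slfn8, Ifi44, Oas3, Dtx3l, Oasl1, Ccl5, Slfn2, Ifih1, Stat3, Gbp2, Gbp3 and Pml were named after their values were seen. Some genes of the lists are counted but not reported here by name. Also chosen then were the comparison with untreated cells, the use of any RefSeq window of a gene in place of the first listed, and a search for a sterol regulatory element (TCACNCCAC). Alternatives were other scalings, pseudocounts, filters, sample sets and replicate settings, edgeR 4.0.16 (quasi-likelihood) and DESeq2 1.42.0 on the recovered reads. Symbols turned into dates (27) stayed in the tests unnamed. The 10 largest changes were taken without predicted genes and genes typed as pseudogenes, Mx2 among the latter. Positions are from GENCODE M21.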

Additional observations from a re-analysis of the deposited data

Results flagged for a closer look

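For the genes below the inhibitor effect with LPS differed from that without LPS in a test of the difference itself (limma interaction, adjusted p under 0.05); each value is the effect with LPS minus that without it, as a difference of log2(CPM + 1). Antiviral and GTPase genes were lower: Rsad2 by -3.13, Cmpk2 by -2.96, Ifit2 by -2.91, Irgm2 by -2.66, Irgm1 by -2.48, Usp18 by -2.44, Igtp by -2.25, Ifi202b by -2.17, Ifit3 by -2.13 and Ifit1 by -2.07. The lowest called difference of all tested genes, -3.36, lay in the effector list and is not among these. Genes typed as pseudogenes, such as Mx2, were left out of this ranking. Genes of sterol or acetoacetyl-CoA metabolism were higher: Hmgcs1 by 0.70, Mvd by 0.60 and Aacs by 0.57.

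The other higher genes were Adat3 (0.58), Macrod1 (0.56), Zbtb26 (0.56), Zfp574 (0.56), Snhg20 (0.55) and Lzts2 (0.53). Neat1, a long noncoding RNA of paraspeckles, had the largest positive value (0.92). It was at 183 and 187 CPM untreated, 93.1 and 115 CPM with the inhibitor, 50.8 and 60.0 CPM with LPS and 46.7 and 74.5 CPM with both agents.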

How the results depend on the processing

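Of the 60 genes at least 2-fold lower with the inhibitor under LPS, 55 to 60 stayed called lower under each setting run. No value reversed. The count of 55 was that of the filter of 5 CPM, which tested 9599 genes and left those at lower levels untested. Counts of smaller changes moved. Genes lower under LPS (263) numbered 113 with no replicate block, 60 at a limit of 2-fold, 450 with only the groups compared (residual degrees of freedom 1), and 162 to 409 leaving out a library; the other settings gave 190 to 325. Genes higher (183) numbered 8 with no replicate block, 114 rescaled by the median of ratios, 531 with CPM as deposited, 63 with no filter, 74 with only wild-type groups, 436 with only the groups compared, 87 by DESeq2, 0 at 2-fold and 31 to 238 leaving out a library. Higher genes were 41.0% of calls, or 26% after the median of ratios, 70.1% with CPM as deposited (median of all genes 0.052) and 6.61% with no replicate block. Without LPS, 3 higher and 1 lower became 0 and 0 with no replicate block or at 2-fold, 1 and 0 with no filter, 5 and 1 by DESeq2, and 1 to 3 and 0 to 1 leaving out a library. For the interaction, 133 higher became 2 with no replicate block, 452 with CPM as deposited, 60 by DESeq2, 40 with no filter, 43 with only wild-type groups, 72 by the median of ratios, 0 at 2-fold and 26 to 242 leaving out a library; 185 lower became 62 with no replicate block, 63 at 2-fold and 137 to 306 leaving out a library. The cause was not tested. Of the named genes' values across settings, 1071 kept direction and side of the threshold, 124 lost the call and 16 gained it; of list medians, 266 moved by less than the replicate spread and 95 by more. With the first-listed RefSeq window alone, chosen after the data were seen, ISRE was in 20 of 45 (44.4%) genes at least 2-fold lower, 0 of 142 higher genes and 3.24% of tested genes. With 2 libraries a group, the design cannot separate culture from library variation.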

Other observations

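The sterol regulatory element TCACNCCAC, searched on both strands after the sterol genes had been seen to rise, was in 1 of the 16 sterol synthesis genes with a RefSeq window, in 5 of 142 (3.52%) genes higher with the inhibitor under LPS, in 0 of 45 at least 2-fold lower and in 119 of 8401 (1.42%) tested genes. These counts are too small to read an order from.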
